A study of Mus musculus with 11 samples.

Results

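The 38 genes described here are 28 immediate early genes and 10 heat shock genes of the mouse, taken by symbol from a fixed list out of the 29809 named genes in the count matrix of a single-cell RNA-seq study of the colonic mucosa. The study followed injury and repair after dextran sulfate sodium (DSS), a polymer that damages the colonic epithelium when drunk in water, and added a colitis caused by loss of the cytokine interleukin 10. The genes were examined by annotated cell type and by library, with fresh DSS libraries set against frozen DSS libraries of other days, so that differences that go with handling could be seen apart from those that go with the day of injury. Each of the 11 libraries is 1 pool of mice and 1 droplet run. The 3 fresh DSS libraries came from wild-type mice from the Jackson Laboratory, 2 months old, given 3% DSS for 6 days and killed on day 7, 11 or 18 (3 mice per pool, University of Chicago, loaded without freezing). The 6 frozen DSS libraries came from mice of the same source, age and dose, killed on day 6, 9, 12, 16, 19 or 23 (8 mice per pool, UC Davis, cells frozen in serum with DMSO, then thawed and run together on 1 day). The Il10-/- library (8 mice, about 10 months old, labelled inflamed) and the uninjured library (8 wild-type mice, 2 months old, no DSS) were frozen in the same way as the 6. In both batches the colon was stripped of its outer muscle, digested with enzymes, filtered, and depleted of red and dead cells before 3′ end capture. Storage, pool size, institute and depth changed together between the batches and cannot be told apart.

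Immediate early genes are switched on within minutes of a stimulus, without new protein synthesis, by factors already in the cell that growth factor, cytokine, calcium and stress kinases activate. They include the AP-1 subunits of the Fos and Jun families, zinc finger factors of the Egr and Klf families, the Nr4a orphan nuclear receptors, and their own brakes, among them the Dusp phosphatases, which switch off MAP kinases, and Zfp36, which marks cytokine mRNAs for decay. Heat shock genes encode chaperones that refold or hold damaged proteins, and heat shock factors turn on the inducible ones when unfolded protein builds up. Both sets are also known to respond to the enzymes, warming and waiting that turn a tissue into single cells, and in the gut they respond to injury and to microbial products.

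The fresh libraries held 7568 to 8953 cells and 79445942 to 87491138 counts of unique molecular identifiers (UMIs), and the 8 frozen libraries 1820 to 5831 cells and 7963048 to 24896041 UMIs. Of 28 annotated cell types, 18 had 20 or more cells in at least 3 frozen DSS libraries and are described by level, and 9 had enough cells in both batches for a test. In each of the 9 the marker genes of the labelled class were present, but neutrophil markers (S100a8, S100a9, Csf3r and Retnlg) were found in every type. In T cells they reached 17584 CPM (counts scaled to a common total for each library and type) in a fresh library and 7008 CPM in a frozen DSS library, above the T cell markers themselves (1561 to 3111 CPM in fresh and 1492 to 3560 CPM in frozen DSS libraries). A total of 611 cell barcodes, 1.11% of all, occurred in more than 1 library.

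The promoters of 4 members with calls described below are shown, to set the near-identical Hsp70 pair beside an immediate early gene of each direction: Hspa1b (ENSMUSG00000090877) and Hspa1a (ENSMUSG00000091971), the near-identical pair for inducible Hsp70, Jun (ENSMUSG00000052684), the member called higher in fresh libraries in the most types, and Dusp1 (ENSMUSG00000024190), a phosphatase called lower in 4 types. Each is given as the 250 bases before the RefSeq gene start, on the gene's own strand, in build GRCm38.p6. They lie at chr17:34959239-34959488 (minus strand), chr17:34972157-34972406 (minus strand), chr4:95052223-95052472 (minus strand) and chr17:26508473-26508722 (minus strand). Capitals mark GAANNTTC, a core of the heat shock element, in the first 3, and TGACGTCA, the full cAMP response element, in Dusp1.
Hspa1b: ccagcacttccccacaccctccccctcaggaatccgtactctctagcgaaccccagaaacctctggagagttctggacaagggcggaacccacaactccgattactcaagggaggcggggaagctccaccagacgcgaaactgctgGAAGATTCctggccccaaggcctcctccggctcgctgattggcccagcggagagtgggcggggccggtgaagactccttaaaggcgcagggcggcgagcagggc
Hspa1a: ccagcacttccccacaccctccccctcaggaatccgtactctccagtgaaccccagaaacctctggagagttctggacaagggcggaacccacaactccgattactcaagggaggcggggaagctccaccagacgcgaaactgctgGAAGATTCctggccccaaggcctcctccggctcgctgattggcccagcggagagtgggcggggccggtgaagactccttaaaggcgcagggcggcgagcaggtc
Jun: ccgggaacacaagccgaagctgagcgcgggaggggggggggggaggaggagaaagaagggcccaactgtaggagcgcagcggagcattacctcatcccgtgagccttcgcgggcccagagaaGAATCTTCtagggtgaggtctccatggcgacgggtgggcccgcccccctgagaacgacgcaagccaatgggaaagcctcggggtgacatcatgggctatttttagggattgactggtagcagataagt
Dusp1: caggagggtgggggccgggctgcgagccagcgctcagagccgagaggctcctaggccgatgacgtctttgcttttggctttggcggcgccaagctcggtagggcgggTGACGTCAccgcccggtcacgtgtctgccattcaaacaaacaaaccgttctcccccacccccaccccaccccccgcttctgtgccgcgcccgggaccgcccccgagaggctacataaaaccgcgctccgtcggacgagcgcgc
The Hspa1b and Hspa1a windows differed at 3 of 250 bases, an identity of 98.8%, with GAANNTTC starting 104 bases before the gene in both and 128 bases before it in Jun. TGACGTCA started 143 bases before Dusp1. Searched on both strands (each motif reads the same on either), GAANNTTC was present in 6.69% of 32851 mouse promoters of this length, and among members with a promoter in the table in 5 of 7 heat shock genes (Hspe1, Dnaja1, Hspb1, Hspa1b and Hspa1a) and 2 of 24 immediate early genes (Jun and Fosl2). TGACGTCA was present in 1.55% of promoters, and among the members in Btg2 and Dusp1. The CArG box, the serum response factor motif, was in 1.47% of promoters and in Zfp36, Egr2 and Dusp5. These are matches of letters only.

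Across the 18 types, in the frozen DSS libraries with at least 20 cells of the type, stromal and vascular cells carried the highest levels. Not every type had all 6 libraries. Blood endothelium had 5, with 23 to 59 cells each, and Crypt-1 epithelium 5, with 26 to 49 cells each. Dendritic cells had 3, with 33 to 50 cells each. Of the 28 immediate early genes, 10 had their highest median in Pi16/Pcolce2 fibroblasts, 5 in Adamdec1/Bmp4 fibroblasts (fibroblasts named by the genes that mark them) and 4 in blood endothelium, and the other 9 in immune or epithelial types. Fos, the founding AP-1 subunit, had a median of 4492 CPM in Adamdec1/Bmp4 fibroblasts (2605 to 6256 CPM over the 6 libraries) and 3338 CPM in Pi16/Pcolce2 fibroblasts (2432 to 4836 CPM), ranges that overlap. Jun, its usual partner, was likewise highest in Adamdec1/Bmp4 fibroblasts (median 1958 CPM, 1363 to 2504 CPM) ahead of Pi16/Pcolce2 fibroblasts (1357 CPM, 998 to 1999 CPM). Klf2, a factor known from endothelium under flow, was highest in endothelium, at 1758 CPM (1301 to 4078 CPM), ahead of Pi16/Pcolce2 fibroblasts at 1358 CPM (638 to 2176 CPM).

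Other members were highest in other compartments. Nr4a3, a nuclear receptor induced by antigen receptor signals, was highest in T cells, at 499 CPM (289 to 584 CPM), ahead of dendritic cells at 300.2 CPM (171 to 498 CPM). Fosl1 and Gadd45b were highest in neutrophils: Gadd45b, a stress sensor, had a median of 890.3 CPM there (368 to 1175 CPM) and 422 CPM in T cells (324 to 526 CPM). Klf6 was highest in Dpep1/Guca2a epithelium, at 1218 CPM (970.1 to 1287 CPM), ahead of Car4/Ly6g epithelium at 1067 CPM (885 to 1358 CPM), ranges that overlap. Among the chaperones, Hspb1, the small heat shock protein, stood at 668 CPM in endothelium (405 to 1006 CPM) against 147 CPM in Adamdec1/Bmp4 fibroblasts (112 to 189 CPM), ranges that do not overlap. Hsp90ab1, the constitutive Hsp90, and Hspe1, the mitochondrial co-chaperonin, were highest in Crypt-1 epithelium, at 2103 CPM (1889 to 2221 CPM) and 742 CPM (645 to 899 CPM) by median.

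Summed over each list, the fresh and frozen ranges mostly overlapped. The immediate early sum in Pi16/Pcolce2 fibroblasts was 27718 to 32719 CPM in fresh libraries and 25049 to 35026 CPM in frozen DSS libraries, and in B cells 5145 to 5284 CPM in fresh and 5053 to 6246 CPM in frozen DSS libraries. Its fresh and frozen ranges overlapped in 8 of the 9 tested types. The exception was Crypt-2 epithelium, with 10162 to 10632 CPM in fresh and 8602 to 9631 CPM in frozen DSS libraries. Fibroblast markers in Crypt-2 cells summed to 306 to 674 CPM in fresh and 36.0 to 137 CPM in frozen DSS libraries, and their part in the result was not tested. The heat shock sum was separate in Adamdec1/Bmp4 fibroblasts, at 5781 to 7536 CPM in fresh and 4539 to 5330 CPM in frozen DSS libraries. Its mean was higher in fresh libraries in each of the 9 tested types. In T cells it was 5288 CPM in fresh and 3834 CPM in frozen DSS libraries, and in macrophages 5221 and 3887 CPM, with overlapping ranges. The mean immediate early sum differed in both directions. It was 11710 CPM in fresh and 14761 CPM in frozen DSS neutrophils, and 12121 and 10317 CPM in Car4/Ly6g epithelium. The sums hide differences of single genes that run in opposite directions.

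**Figure D1:**
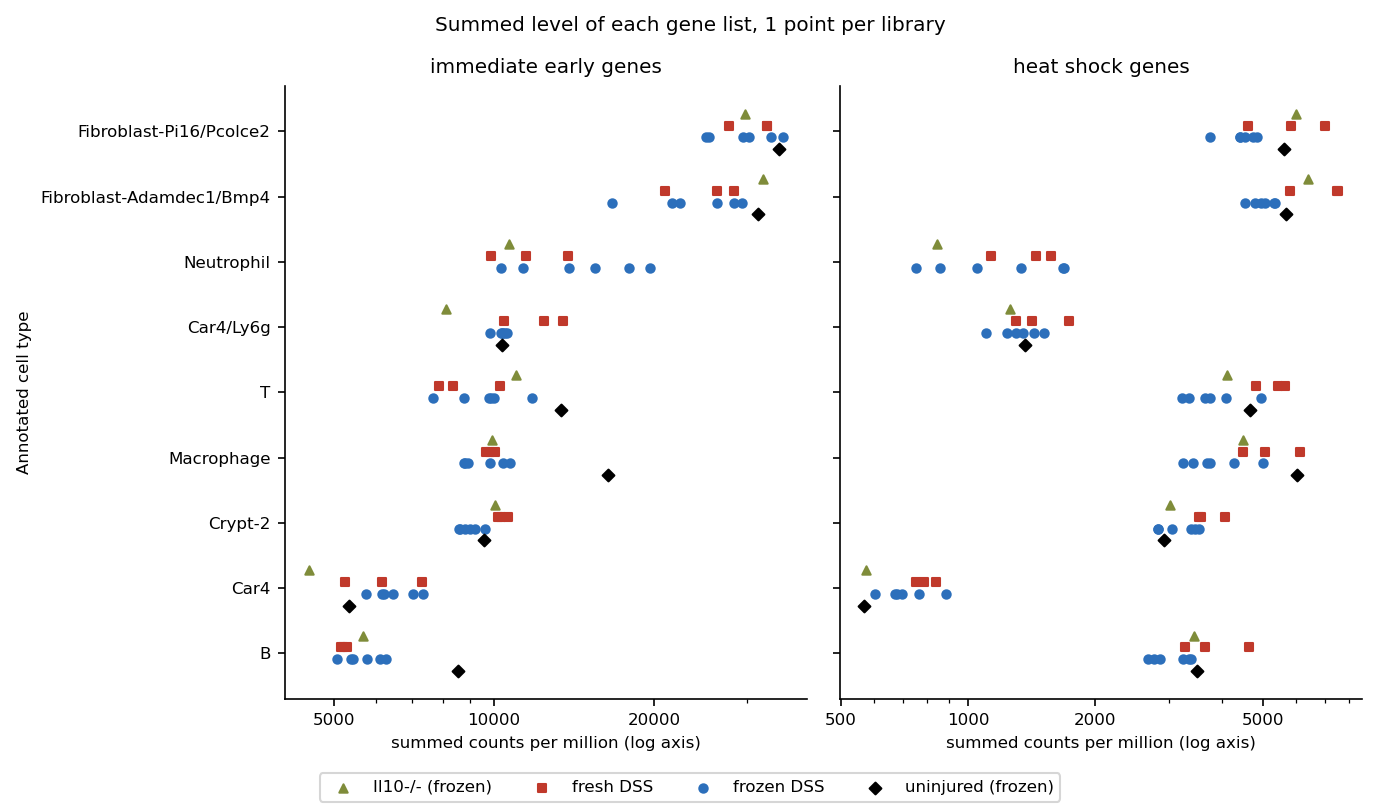
Summed CPM (log axis) of the 28 immediate early genes (left) and the 10 heat shock genes (right) in the 9 tested cell types, 1 point per library: Il10-/- (triangles), fresh DSS (squares), frozen DSS (circles) and uninjured (diamonds). Both fibroblast types lie highest in the left panel, and the fresh and frozen DSS points overlap in 8 of 9 types there.

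Taken gene by gene, fresh and frozen DSS libraries differed in both directions, and the calls of each member that passed the test ran one way only. Fold changes of the same member that were not called could run the other way. Counts summed per library and type were fitted with edgeR's quasi-likelihood test, with a term for batch and a term for day, over 3 fresh and 6 frozen DSS libraries, and called at an adjusted p (Benjamini-Hochberg over all genes of the type) under 0.05. Of 342 pairs of a member and a type, 319 passed the filter on low counts. In 27 pairs (10 members) the member was called higher in fresh libraries, in 51 (17 members) lower, and no member was called in both directions. These are 8.46% and 16.0% of the pairs, beside 6.96% and 7.38% of the 67788 pairs of any gene and type. The heat shock genes made 13 of the higher calls in 82 pairs, and their 4 lower calls were all of Hspe1. The immediate early genes made 14 higher and 47 lower calls in 237 pairs. Day and batch were fitted together from the same libraries. Each day has a single pool, so the p-values rest on the scatter of pools about a straight line in day. They do not measure a spread between pools of the same day, and a course that is not a straight line would add to the scatter. Of the 78 calls, 40 held when each library was left out in turn, 74 held with DESeq2, and 56 held when libraries were scaled by their totals alone, an alternative chosen after seeing the data. No call changed sign in any setting tried.

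The share of called members has to be read against all genes, since the batches differed widely. The members called higher and lower were 2 and 13 of 36 tested in B cells (9.33% and 8.8% of all genes called higher and lower), 5 and 10 of 38 in macrophages (11.7% and 12.6% of all genes), 0 and 9 of 38 in neutrophils (5.27% and 5.96%; by DESeq2 0 and 10, with 14 members at an unadjusted p under 0.05 in either direction by edgeR), and 6 and 6 of 35 in T cells (6.5% and 5.73%). In the fibroblasts they were 3 and 1 of 38 in Adamdec1/Bmp4 cells (4.01% and 4.96%) and 4 and 7 of 38 in Pi16/Pcolce2 cells (5.47% and 7.15%). In the epithelium they were 3 and 2 of 28 in Car4 cells (14.8% and 12.7%), 3 and 1 of 32 in Car4/Ly6g cells (4.08% and 4.47%) and 1 and 2 of 36 in Crypt-2 cells (5.59% and 5.97%). The shares of members called lower were thus well above those of all genes in B cells, macrophages, neutrophils, T cells and Pi16/Pcolce2 fibroblasts, and near or below them in the other 4 types; the shares called higher were above those of all genes in T cells, Pi16/Pcolce2 and Adamdec1/Bmp4 fibroblasts and Car4/Ly6g epithelium, and near or below them in the other 5. The median log2 fold change of the tested members was -0.35 in B cells and -0.42 in neutrophils, beside 0.03 and 0.07 over all genes in those types, and 0.01 in Adamdec1/Bmp4 fibroblasts, beside 0.01 over all genes. Cell quality moved with batch in all 6 immune and fibroblast types: in each, a typical cell had a lower mitochondrial share and more UMIs in every fresh library than in any frozen DSS library. The mitochondrial share was 3.52% to 3.93% in fresh and 5.38% to 9.03% in frozen DSS libraries in macrophages, 5.32% to 6.35% and 7.18% to 11.6% in B cells, 4.14% to 5.12% and 5.33% to 10.5% in T cells, 4.03% to 4.90% and 7.03% to 8.98% in Adamdec1/Bmp4 fibroblasts, and 3.60% to 4.02% and 5.38% to 8.75% in Pi16/Pcolce2 fibroblasts. The part of these differences in the calls was not tested.

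The split depends on how libraries are scaled. With totals alone the median of all genes moved to 0.54 in neutrophils, 0.25 in macrophages, 0.24 in B cells, 0.22 in Pi16/Pcolce2 fibroblasts, 0.20 in Adamdec1/Bmp4 fibroblasts, 0.16 in T cells, 0.14 in Crypt-2 and 0.13 in Car4/Ly6g epithelium, and stayed at -0.03 in Car4 epithelium. The called members, higher and lower, were then 3 and 4 in neutrophils, 11 and 5 in macrophages, 4 and 7 in B cells, 6 and 6 in Pi16/Pcolce2 fibroblasts, 8 and 0 in Adamdec1/Bmp4 fibroblasts, 8 and 4 in T cells, 3 and 0 in Crypt-2 epithelium, 3 and 1 in Car4/Ly6g epithelium and 3 and 3 in Car4 epithelium. In B cells, thinning all libraries to the smallest total left 19 members to test and kept 2 of the 15 calls (Nr4a1 and Hsp90ab1), and without the day 18 library neutrophils had 4 of 9 calls.

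**Figure D2:**
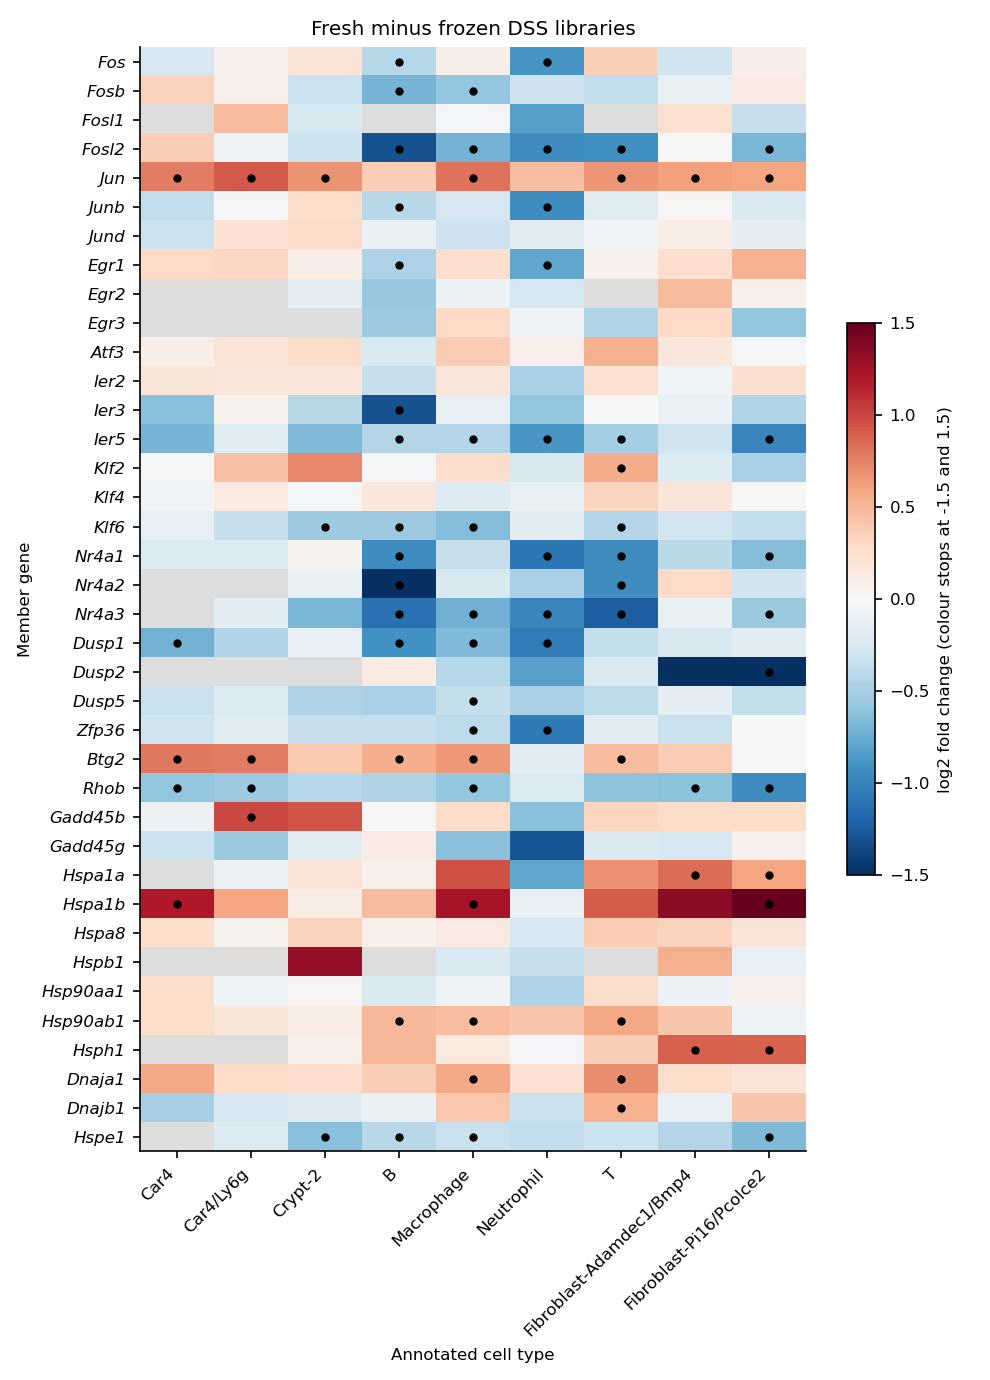
Log2 fold change of fresh over frozen DSS libraries (colour) for the 38 members (rows) in the 9 tested cell types (columns), with a dot where the adjusted p was under 0.05 and grey where the gene was not tested. The Jun row carries 7 dots, all higher, and the Nr4a and Dusp rows carry lower calls only.

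Jun, the AP-1 subunit with the strongest drive to transcription, was the member called higher in fresh libraries most widely, in 7 of 9 types, with log2 fold changes of 0.59 to 0.93. All 7 held under totals alone and 5 held without any single library. In Car4/Ly6g epithelium Jun stood at 1365, 1078 and 1413 CPM on days 7, 11 and 18 in the fresh libraries, against values between 527 and 850.4, with a median of 642 CPM in the 6 frozen DSS libraries (log2 fold change 0.93 ± 0.16 (SE), adjusted p = 0.00225). All 3 fresh libraries lay above all 6 frozen ones. For called members, here and below, such separation describes the values and adds no support to the call. The share of all genes separated in this way is given for some types only. No other AP-1 subunit was called higher in any type. Fos was called lower in B cells (-0.43, adjusted p = 0.0381) and neutrophils (-0.88, adjusted p = 0.0236), and neither call held under totals alone. The fold change of Fos was positive in 5 of 9 types. On plain CPM, Junb and Jund in Crypt-2 epithelium and Fosb in Pi16/Pcolce2 fibroblasts also lay above all frozen libraries (9.15% and 11.3% of all genes did). Junb lay below them in B cells, where the share of all genes is not given here. In Car4/Ly6g epithelium the log2 fold change of Fos was 0.08 and that of Junb -0.02, neither called. CPM here and below are plain values within the type, whereas fold changes come from the scaled fit, so they can differ.

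Btg2, an antiproliferative cofactor that p53 and growth signals induce, was called higher in 5 types (0.47 to 0.79), all of which held under totals alone, and in 4 of the 5 without any single library. In Car4 epithelium it had 557, 502 and 592 CPM in fresh libraries and values between 296 and 388, with a median of 331 CPM in frozen DSS libraries (log2 fold change 0.79 ± 0.17 (SE), adjusted p = 0.00223). Those ranges did not overlap. In Car4 cells 38.6% to 49.0% of the counts of a typical cell in the frozen DSS libraries, and 50.4% to 54.6% in the fresh ones, were mitochondrial, and columnar epithelial markers were lower in fresh (4211 to 5514 CPM) than in frozen DSS libraries (5974 to 6851 CPM). Their part in the result was not tested. The other immediate early genes called higher were each called in 1 type: Gadd45b in Car4/Ly6g epithelium (0.99, adjusted p = 0.00611) and Klf2 in T cells (0.56, adjusted p = 0.0267; 0.147 at most when 1 library was left out).

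Hspa1b gave the largest rise. In Pi16/Pcolce2 fibroblasts it had 344, 789 and 867 CPM in fresh libraries and values between 158 and 246, with a median of 193 CPM in frozen DSS libraries (log2 fold change 1.65 ± 0.17 (SE), adjusted p = 4.61e-06). The day 7 fresh library lay far below the other fresh ones but still above every frozen library, and the call held without any single library. Hspa1b was also called in macrophages (1.24, adjusted p = 0.0421, but 0.218 without the day 18 library) and in Car4 epithelium (1.20, adjusted p = 0.0133). Its copy Hspa1a was called in Pi16/Pcolce2 and Adamdec1/Bmp4 fibroblasts. In Adamdec1/Bmp4 cells Hspa1a had 483, 986 and 1226 CPM in fresh libraries and values between 302 and 704, with a median of 458 CPM in frozen DSS libraries (log2 fold change 0.84 ± 0.15 (SE), adjusted p = 0.00145). Here the ranges overlapped, because the day 7 fresh library was as low as the frozen ones. The 2 copies are nearly identical, so how reads are divided between them is uncertain and the values of either alone are too.

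Other chaperones were called higher as well, some of them in types where neither Hsp70 copy was called. Hsph1, the Hsp110 that recharges Hsp70, had 46.1, 84.8 and 83.6 CPM in fresh Adamdec1/Bmp4 fibroblasts and values between 21.8 and 46.9, with a median of 37.7 CPM in frozen DSS libraries (log2 fold change 0.90 ± 0.20 (SE), adjusted p = 0.00804), and the call was lost without the day 18 library (adjusted p = 0.0791). Again only the day 7 fresh library overlapped the frozen ones. In Pi16/Pcolce2 fibroblasts the Hsph1 fold change was 0.89 (adjusted p = 0.0123). Dnaja1, an Hsp40 that hands clients to Hsp70, had 677, 682 and 624 CPM in fresh T cells and values between 306 and 511, with a median of 387 CPM in frozen DSS libraries (log2 fold change 0.70 ± 0.16 (SE), adjusted p = 0.00362). These did not overlap, and Dnaja1 was also called in macrophages (0.57). Dnajb1, the Hsp40 of the heat shock response, was called in T cells alone (0.52, adjusted p = 0.0342), a call lost when any of 6 libraries was left out (adjusted p up to 0.311), and its log2 fold change was negative in 6 of 9 types. Hsp90ab1 had 1429, 1699 and 1653 CPM in fresh T cells and values between 909 and 1271, with a median of 979 CPM in frozen DSS libraries (log2 fold change 0.58 ± 0.14 (SE), adjusted p = 0.00766), without overlap, and was also called in B cells (0.50) and macrophages (0.47). In fresh Adamdec1/Bmp4 fibroblasts, where Hspa1a and Hsph1 were higher, red blood cell markers summed to 630 to 2163 CPM, against 0 to 15.6 CPM in frozen DSS libraries, and their part in the result was not tested.

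Hspe1 went the other way. It was called lower in fresh libraries in 4 types (-0.67 to -0.33), of which 1 held under totals alone and 0 held without every single library in turn. In Pi16/Pcolce2 fibroblasts it had 214, 286 and 210.2 CPM in fresh libraries and values between 287 and 420.3, with a median of 306 CPM in frozen DSS libraries (log2 fold change -0.67 ± 0.15 (SE), adjusted p = 0.00557; 0.0595 without the day 18 library). The highest fresh library and the lowest frozen one were nearly equal.

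**Figure D3:**
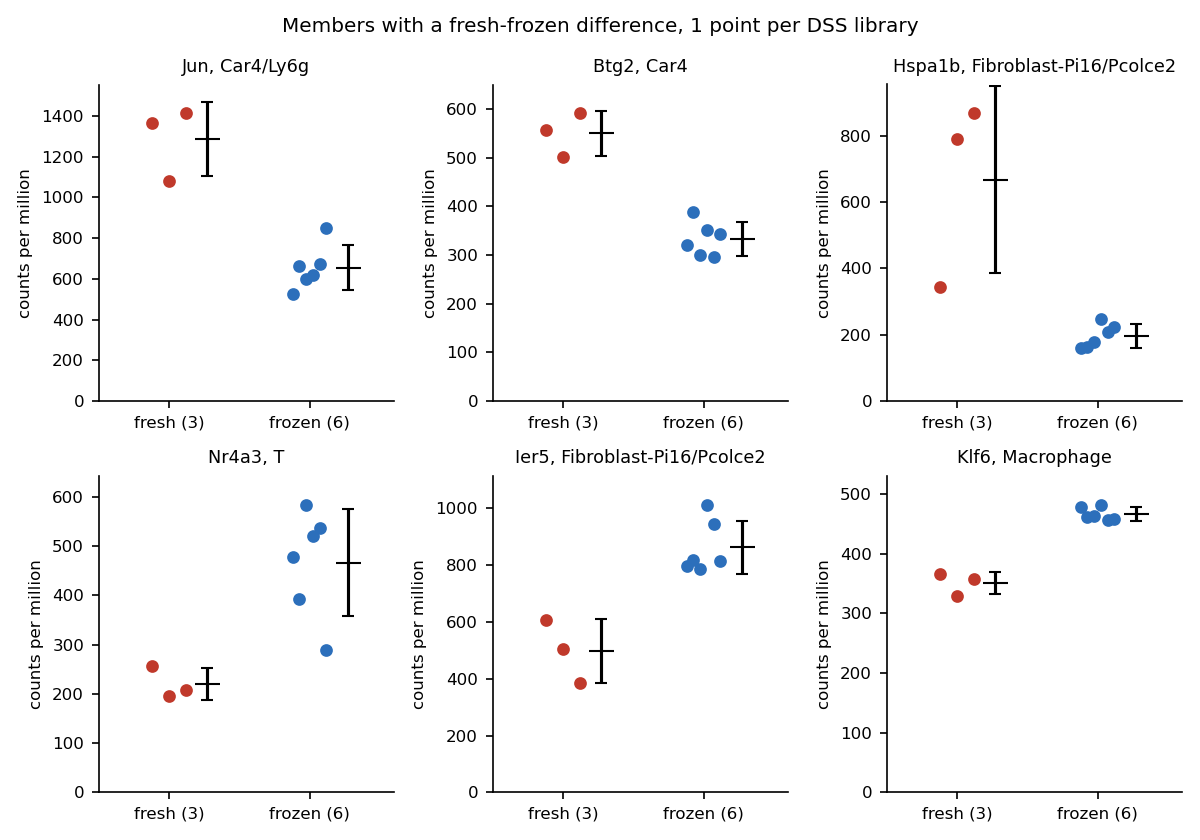
CPM of 6 members, each in the cell type with its largest fold change, 1 point per DSS library, with the mean and SD as bars beside the points (3 fresh libraries left, 6 frozen right). Jun, Btg2 and Hspa1b lie higher in every fresh library than in any frozen one, and Nr4a3, Ier5 and Klf6 lie lower. The panels were picked among called members, so the separation is no further support. Of all genes, 11.3% lay higher in this way in Pi16/Pcolce2 fibroblasts, the type of Hspa1b, and 3.14% lower in T cells, the type of Nr4a3. For the other panels the share of all genes is not given here.

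Among the members that were lower in fresh libraries, the Nr4a receptors were called in both kinds of lymphocyte. Nr4a3 was called in 5 types, of which 3 held under totals alone, and Nr4a1 in 4, and Nr4a2 in B and T cells. In T cells Nr4a3 had 256, 196 and 209 CPM in fresh libraries and values between 289 and 584, with a median of 499 CPM in frozen DSS libraries (log2 fold change -1.24 ± 0.20 (SE), adjusted p = 0.000247). The lowest frozen library, day 23, came closest to the fresh ones. In the same cells Nr4a1 and Nr4a2 each fell by 0.93 on the log2 scale (adjusted p = 0.000994 for Nr4a1), and all 3 receptors lay lower in every fresh library than in any frozen one, as did 3.14% of all genes. In neutrophils Nr4a1 had 213, 181 and 252 CPM in fresh libraries and values between 258 and 447, with a median of 336 CPM in frozen DSS libraries (log2 fold change -1.09 ± 0.17 (SE), adjusted p = 0.00067). Under totals alone its log2 fold change in neutrophils was -0.65 (adjusted p = 0.0189).

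Of the phosphatases, Dusp1 was called in 4 types (-1.05 to -0.67), all of which held under totals alone. In neutrophils it had 872, 1273 and 1466 CPM in fresh libraries and values between 1413 and 2861, with a median of 1923 CPM in frozen DSS libraries (log2 fold change -1.05 ± 0.16 (SE), adjusted p = 0.000433), so the highest fresh library reached into the frozen range. Dusp2 was called in Pi16/Pcolce2 fibroblasts (-1.49, adjusted p = 0.0222; 0.124 at most with 1 library left out) and Dusp5 in macrophages (-0.36, adjusted p = 0.0374; 0.24 at most). The decay factor Zfp36 was called in neutrophils (-1.06) and macrophages (-0.39). A typical neutrophil had 0.792% to 0.906% mitochondrial counts in fresh and 2.27% to 4.34% in frozen DSS libraries, and 3103 to 6300.5 UMIs in fresh and 1368 to 2093 UMIs in frozen DSS libraries; their part was not tested.

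Fosl2, an AP-1 subunit with no strong activating domain, was called lower in 5 types (-1.31 to -0.68), 4 of which held under totals alone. In B cells it had 44.8, 32.7 and 20.1 CPM in fresh libraries and values between 39.3 and 122, with a median of 56.5 CPM in frozen DSS libraries (log2 fold change -1.31 ± 0.23 (SE), adjusted p = 7.13e-06), and the day 7 fresh library overlapped the lower frozen ones. B cells held the most lower calls of any type: beside Fosl2 the largest were Nr4a2 (-1.58, adjusted p = 0.00804) and Ier3 (-1.30, adjusted p = 3.89e-05), a survival factor. Egr1 (-0.47), Junb (-0.42) and Fosb (-0.70) were called there too, and each of those calls was lost without at least 1 library (adjusted p up to 0.185, 0.365 and 0.276). Egr1 was called lower in 2 types, of which 0 held under totals alone, and its fold change was positive in 7 of 9 types. On plain CPM Egr1 lay above all frozen DSS libraries in Pi16/Pcolce2 fibroblasts, as did 11.3% of all genes. Macrophage markers in B cells summed to 3.65 to 20.8 CPM in fresh and 57.7 to 199 CPM in frozen DSS libraries, and their part in the result was not tested.

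Ier5, an immediate early regulator that can act on heat shock factor, was called in 5 types (-0.99 to -0.44), of which 1 held under totals alone. That was Pi16/Pcolce2 fibroblasts, with 608, 504 and 383 CPM in fresh libraries and values between 785 and 1011, with a median of 815 CPM in frozen DSS libraries (log2 fold change -0.99 ± 0.18 (SE), adjusted p = 0.00112), without overlap. Rhob, a small GTPase of stress responses, was called in 5 types (-0.94 to -0.54), of which 3 held under totals alone and 2 without any single library, with 129.6, 255 and 374 CPM in fresh Pi16/Pcolce2 fibroblasts and values between 219.8 and 815, with a median of 489 CPM in frozen DSS libraries (log2 fold change -0.94 ± 0.20 (SE), adjusted p = 0.00443). In both batches the earliest day was the lowest and the last day the highest, and the ranges overlapped although the fit called the difference at a given day. Klf6, a wound-responsive zinc finger factor, was called in 4 types, of which 1 held under totals alone and 1 without any single library. In macrophages it had 366, 330.0 and 358 CPM in fresh libraries and values between 456 and 482, with a median of 462 CPM in frozen DSS libraries (log2 fold change -0.65 ± 0.10 (SE), adjusted p = 0.000244), a narrow spread in each batch and no overlap. In neutrophils the plain CPM of Klf6 lay higher in all 3 fresh libraries, while the fitted fold change was -0.16 and not called. The share of all genes that lay higher in this way in neutrophils is not given here. Plasma cell markers in macrophages summed to 32.0 to 81.5 CPM in fresh and 142 to 987 CPM in frozen DSS libraries, and their part in the macrophage calls was not tested.

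The remaining 11 members were called in no type: the AP-1 subunits Jund and Fosl1, the related factor Atf3, the zinc finger factors Egr2, Egr3 and Klf4, Ier2 and Gadd45g, and the chaperones Hspa8 (constitutive Hsp70), Hsp90aa1 and Hspb1. Their fold changes in Pi16/Pcolce2 fibroblasts, for example, were -0.15 for Jund, -0.03 for Atf3 and 0.19 for Hspa8. Some were separate on plain CPM without being called: Hspa8 lay higher in all 3 fresh than in all 6 frozen libraries in both fibroblast types and in Crypt-2 epithelium. Jund and Atf3 did so in Crypt-2 epithelium, and Atf3 in T cells as well, where the share of all genes is not given here. Such separation was seen for 11.3% of all genes in Pi16/Pcolce2 fibroblasts, 9.42% in Adamdec1/Bmp4 fibroblasts and 9.15% in Crypt-2 epithelium.

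Whether a fresh-frozen difference was larger in one type than in the others was tested within libraries, with limma on each type's log2 CPM minus the mean of the other tested types, over 2207 genes measured in all. Of the members, 10 member and type pairs passed, and each was lost in at least 1 setting that left out a library. Hspa1b stood apart in Pi16/Pcolce2 fibroblasts, where its difference was larger than in the other types by 0.73 (adjusted p = 0.0184), and in Crypt-2 epithelium, where it was smaller by 0.92 (difference -0.92, adjusted p = 0.0273). The 10 pairs lay in Car4 and Crypt-2 epithelium (1 each; 4.26% and 2.85% of all genes called), macrophages (4, all negative; 18.7%, with 18.1% negative) and Pi16/Pcolce2 fibroblasts (4; 4.53%). In T cells limma called 0 of 28 members tested (5 at an unadjusted p under 0.05), with Nr4a1 at an adjusted p of 0.546, so the Nr4a1 difference was not shown to be particular to T cells; no second tool was run for this test.

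The same fit gives each member's slope over the days of injury and repair, at a given batch, in log2 units per 10 days. Here most calls lay in fibroblasts and macrophages, and a lack of calls elsewhere does not show a lack of change. In Adamdec1/Bmp4 fibroblasts 11 members rose with day and 2 fell, of 38 (3.19% and 3.07% of all genes rose and fell); in macrophages 5 rose and 4 fell (3.91% and 5.88%), and in Pi16/Pcolce2 fibroblasts 3 rose and 4 fell (1.14% and 1.42%). B cells had 1 of each (0.35% and 0.525%) and Car4 epithelium 2 falls (0.548%, with 0.308% rising). No member was called by edgeR in Car4/Ly6g or Crypt-2 epithelium, neutrophils or T cells (1.11%, 0.194%, 2.61% and 0.299% of all genes), where 7, 11, 7 and 10 members had an unadjusted p under 0.05 and DESeq2 called 2, 2, 1 and 2. Under totals alone 8 members rose in neutrophils, where the median slope of all genes was then 0.37. Of the 33 calls, 10 held without each library in turn, 30 held under totals alone and 25 held in the 6 frozen libraries by themselves, and none changed sign.

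In Adamdec1/Bmp4 fibroblasts Atf3, a stress-induced partner of AP-1, rose most (1.18 ± 0.17 (SE), adjusted p = 0.000892). In the frozen libraries of days 6, 9, 12, 16, 19 and 23 it stood at 256, 153, 243, 471, 652 and 685 CPM, and in the fresh libraries of days 7, 11 and 18 at 274, 338 and 611 CPM, so that the fresh values followed the course of the frozen ones. Gadd45g, a stress sensor of the cell cycle (1.09 ± 0.13 (SE), adjusted p = 0.000196), had 217, 193, 358, 422, 547 and 608 CPM over the frozen days and 189, 259 and 488 CPM over the fresh days. Klf2 (0.87 ± 0.14 (SE), adjusted p = 0.00151) had 342, 438, 632, 952, 739.6 and 1088 CPM over the frozen days and 487, 439 and 782 CPM over the fresh days. In each of the 3 the frozen values of days 16 to 23 lay above those of days 6 and 9, and the fresh value of day 18 above those of days 7 and 11. Fos rose too (0.63 ± 0.12 (SE), adjusted p = 0.00308), with 3196, 2605, 3991, 4993, 5403 and 6256 CPM over the frozen days and 3222, 3186 and 4192 CPM over the fresh days; its fresh day 18 value lay under the frozen values of days 16 and 19. Hspa1a (0.83), Btg2 (0.79), Ier2 (0.62), Klf4 (0.58), Dusp1 (0.54), Zfp36 (0.52) and Dnajb1 (0.46) made up the 11. Without the day 6 library 7 rose and 1 fell.

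Ier3, which restrains cell death and NF-kB signalling, moved the opposite way, and did so in 5 types. In Adamdec1/Bmp4 fibroblasts it had 1548, 1155, 607, 681, 629 and 616 CPM over the frozen days and 1269.9, 924 and 766 CPM over the fresh days (-0.72 ± 0.14 (SE), adjusted p = 0.00616; 0.0718 without day 6). The high values were those of days 6 to 9. Its slope was -0.56 in Pi16/Pcolce2 fibroblasts (adjusted p = 0.0263), -0.55 in macrophages (0.0161), -1.20 in B cells (0.00287) and -1.20 in Car4 epithelium (0.014), and each of these calls was lost without at least 1 library, day 6, 18 or 23 among them (adjusted p up to 0.148, 0.0569, 0.115 and 0.184). Dusp5, the phosphatase specific for nuclear ERK, also fell in Adamdec1/Bmp4 fibroblasts (-1.11 ± 0.23 (SE), adjusted p = 0.00636), with 64.1, 36.0, 12.5, 24.3, 21.8 and 8.80 CPM over the frozen days and 45.8, 26.9 and 22.3 CPM over the fresh days. Dusp1 fell in Car4 epithelium (-0.75, adjusted p = 0.0424, 0.173 at most with 1 library left out).

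**Figure D4:**
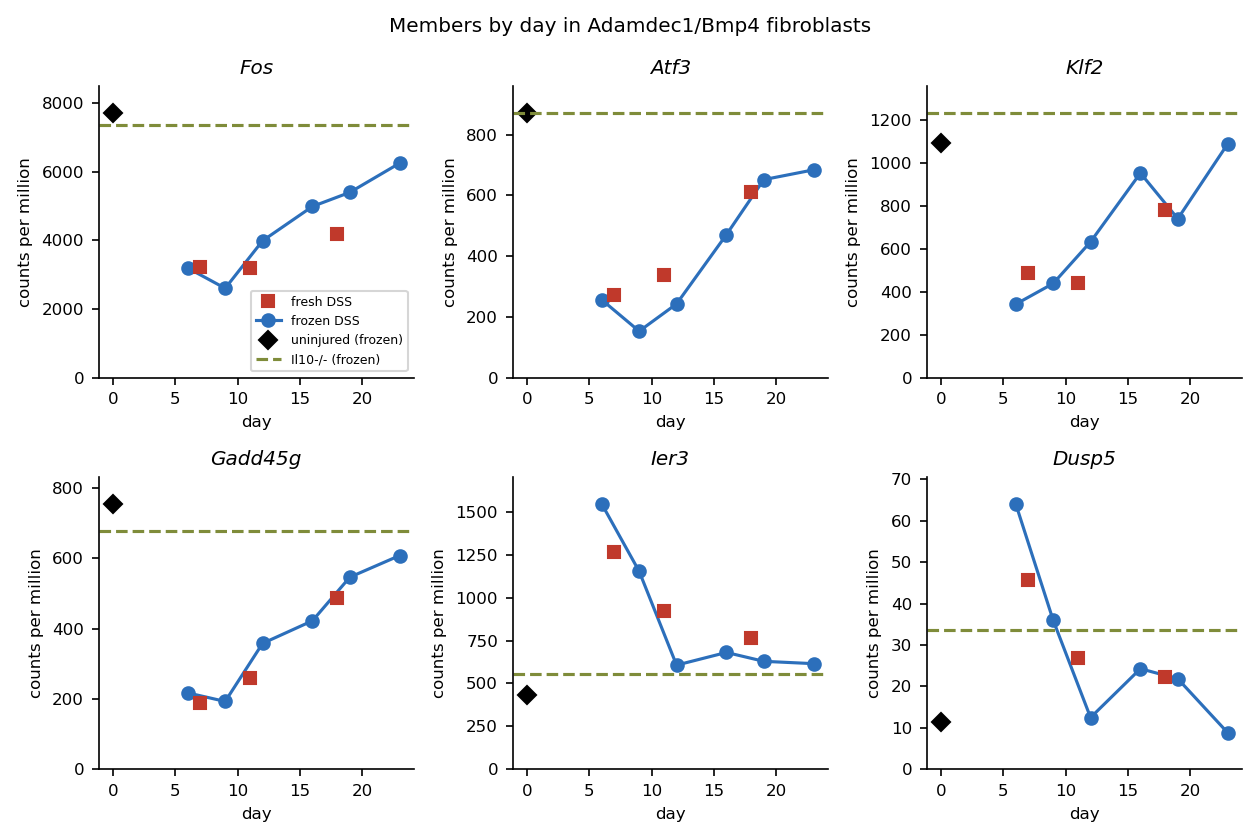
CPM of 6 members in Adamdec1/Bmp4 fibroblasts by day: fresh DSS libraries (squares), frozen DSS libraries (circles and line), the uninjured library at day 0 (diamond) and the Il10-/- library (dashed line). Fos, Atf3, Klf2 and Gadd45g rose with day towards the uninjured value, and Ier3 and Dusp5 fell. Most fresh points lie near the frozen course, but the last fresh point of Fos lies below it.

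In Pi16/Pcolce2 fibroblasts the receptors Nr4a3 (-1.02 ± 0.15 (SE), adjusted p = 0.00154) and Nr4a2 (-0.74, adjusted p = 0.00998) fell with day, as did Fosl2 (-0.57, adjusted p = 0.0415). Rhob (0.93 ± 0.17 (SE), adjusted p = 0.00807), Atf3 (0.84, adjusted p = 0.00721) and Klf2 (0.79, adjusted p = 0.00973) rose. Nr4a3 had 346, 239.8, 155, 163, 158 and 74.2 CPM over the frozen days and 174, 179 and 117 CPM over the fresh days. The calls here leaned on the ends of the course: of 7, 1 was left without day 6 and 1 without day 23, 4 without day 18, whereas 14 were called without day 7 and 11 without day 11. In macrophages Atf3 (0.84 ± 0.15 (SE), adjusted p = 0.00766), Jun (0.62 ± 0.11 (SE), adjusted p = 0.00353) and Hsp90ab1 (0.41 ± 0.09 (SE), adjusted p = 0.00992) rose most, and Fosl2 (-0.58 ± 0.09 (SE), adjusted p = 0.00206), Ier3 and Nr4a3 (-0.45, adjusted p = 0.0404) fell most. The macrophage calls, 9 in all, were 4 without day 6, 5 without day 18 and 4 without day 23, with Jun at an adjusted p of 0.0525 and Atf3 at 0.0737 without day 23. In B cells Fos rose (0.51, adjusted p = 0.0382), a call lost without day 6, 9, 18 or 23 (adjusted p up to 0.596).

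The Il10-/- and uninjured colons gave 1 library each, so there is no test; values are CPM, and the uninjured value carries an exact Poisson 95% interval, which covers counting error only. All of these libraries, the 6 frozen DSS ones included, were frozen, so storage does not separate them. The Il10-/- mice differed from the uninjured ones in genotype, inflammation and age (about 10 against 2 months), which cannot be told apart. A member was taken to lie outside when all 6 frozen DSS libraries were on one side of the uninjured interval, among members with at least 20 counts. T cells (37) and neutrophils were too few in the uninjured library, which leaves 8 types. In macrophages 15 of 28 immediate early genes lay below and 4 above (all genes 5.09% and 5.23%), and 4 of 9 heat shock genes below and 0 above. In Il10-/- macrophages 16 of 28 immediate early genes lay below and 3 above by non-overlapping intervals (all genes 5.92% and 5.93%).

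Klf2, which keeps macrophages quiescent, showed 93.9 to 167 CPM in the 6 frozen DSS libraries, 242 CPM in Il10-/- and 951 CPM in uninjured colon (interval 826 to 1089), a ratio of 0.12 of the frozen DSS median to uninjured. Jun showed 111 to 239 CPM in the 6 frozen DSS libraries, 215 CPM in Il10-/- and 600.4 CPM in uninjured colon (interval 502 to 712), a ratio of 0.23. Egr1, the zinc finger factor of growth signals, had a ratio of 0.20, Atf3 of 0.29 and Fos of 0.37. Every frozen DSS library was thus below uninjured for these genes, and the Il10-/- library lay on the same side. Among the chaperones Hspa1a showed 62.3 to 278 CPM in the 6 frozen DSS libraries, 225 CPM in Il10-/- and 646 CPM in uninjured colon (interval 544 to 761), a ratio of 0.17. In the other direction, Nr4a3 showed 149 to 316 CPM in the 6 frozen DSS libraries, 177 CPM in Il10-/- and 63.7 CPM in uninjured colon (interval 34.8 to 107), a ratio of 4.39, and Ier3 showed 493 to 935 CPM in the 6 frozen DSS libraries, 472 CPM in Il10-/- and 200.1 CPM in uninjured colon (interval 145 to 269), a ratio of 3.29. The uninjured value rests on 63 macrophages. Their macrophage markers summed to 16946 CPM, against 4842 to 10180 CPM in frozen DSS libraries and 12615 CPM in Il10-/-, their neutrophil markers to 9.10 CPM, against 395 to 8320 CPM and 2517 CPM, and a typical cell had 11.0% mitochondrial counts, against 5.38% to 9.03% and 6.30%. Their part in these differences was not tested.

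**Figure D5:**
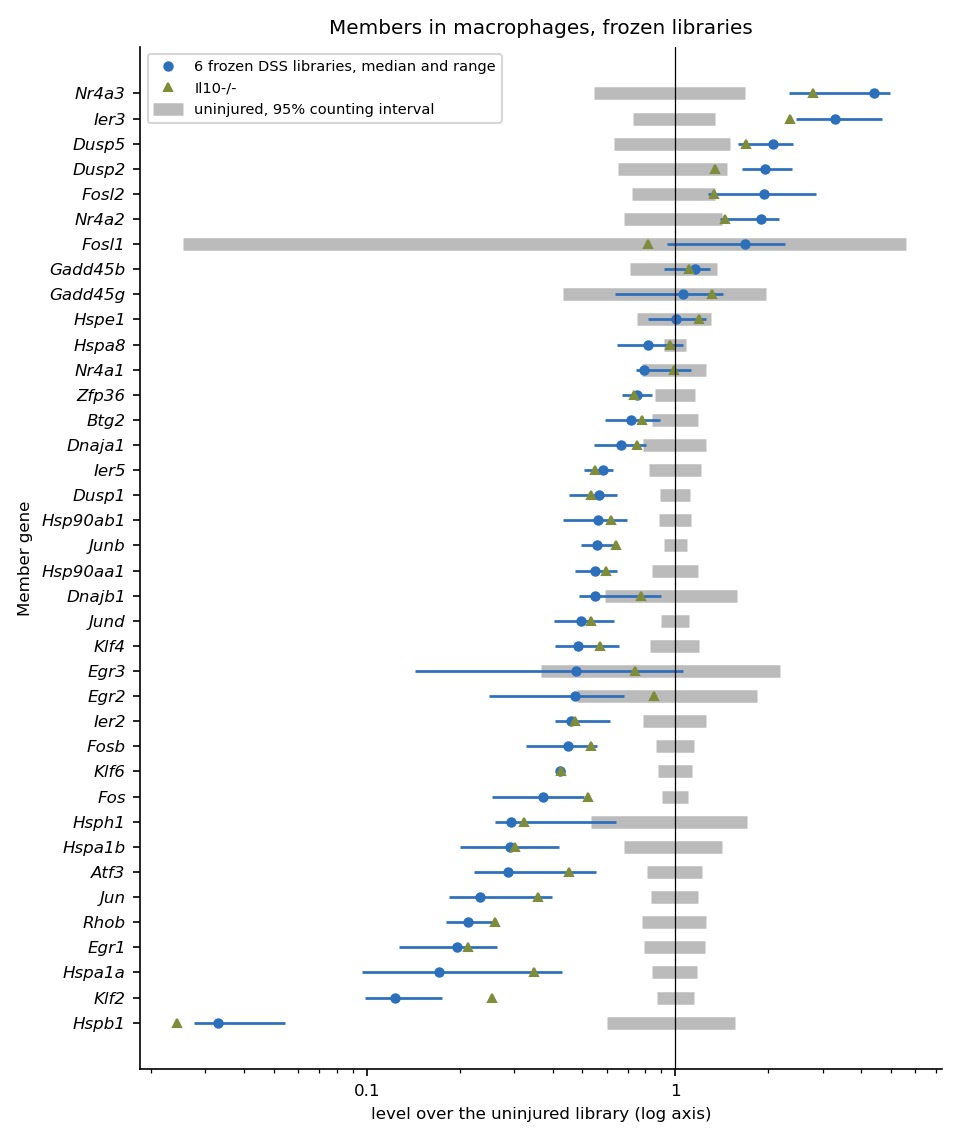
Level of each member in macrophages over its level in the uninjured library (log axis): median (circle) and range (line) of the 6 frozen DSS libraries, the Il10-/- library (triangle), and the uninjured counting interval (grey bar). Most members lie left of 1, from Hspb1 and Klf2 upward, and Ier3 and Nr4a3 lie farthest right.

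In Pi16/Pcolce2 fibroblasts 8 of 27 immediate early genes lay below uninjured in all 6 frozen DSS libraries and 5 above (12.9% and 9.21% of all genes), and in Adamdec1/Bmp4 fibroblasts 6 below and 4 above of 27 (5.08% and 4.72%). Atf3 showed 302 to 1109.9 CPM in the 6 frozen DSS libraries, 1058 CPM in Il10-/- and 1312 CPM in uninjured colon (interval 1269 to 1356) in Pi16/Pcolce2 fibroblasts, a ratio of 0.48. Ier3 showed 1005 to 1600.4 CPM in the 6 frozen DSS libraries, 819 CPM in Il10-/- and 599 CPM in uninjured colon (interval 571 to 629) there, a ratio of 2.1. In Il10-/- Pi16/Pcolce2 fibroblasts 18 of 27 immediate early genes lay below and 2 above (7.56% and 6.49% of all genes), and in Il10-/- Adamdec1/Bmp4 fibroblasts 2 below and 7 above (3.37% and 4.35%). The difference between those 2 types was not tested. In Adamdec1/Bmp4 fibroblasts Jun showed 1363 to 2504 CPM in the 6 frozen DSS libraries, 2722 CPM in Il10-/- and 3143 CPM in uninjured colon (interval 3004 to 3286), and Nr4a1 showed 434 to 742 CPM in the 6 frozen DSS libraries, 461 CPM in Il10-/- and 289 CPM in uninjured colon (interval 248 to 334), ratios of 0.62 and 2.39.

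The epithelial types differed among themselves in their counts. In Car4 epithelium 4 of 22 immediate early genes lay above and 0 below (9.61% and 5.21% of all genes). In Dpep1/Guca2a epithelium 4 of 21 lay above and 0 below (8.88% and 2.52%). In Car4/Ly6g epithelium 5 of 22 lay above and 2 below (10.5% and 10.9%), and in Crypt-2 epithelium 3 of 26 above and 6 below (7.92% and 3.23%). A typical uninjured cell had 51.9% mitochondrial counts in Car4 epithelium, against 38.6% to 48.98% in frozen DSS libraries. The shares were 38.9% against 25.5% to 39.6% in Dpep1/Guca2a, 24.5% against at most 23.9% in Car4/Ly6g and 18.9% against 11.5% to 23.1% in Crypt-2 epithelium. CPM totals include mitochondrial genes, and the part of these shares in the counts was not tested. In Crypt-2 cells fibroblast markers summed to 36.0 to 137 CPM in frozen DSS libraries and 419 CPM in the uninjured one, and neutrophil markers to 163 to 5381 CPM and 2.98 CPM; their part was not tested. Zfp36 lay above uninjured in all 6 frozen DSS libraries and in Il10-/- in all 4 of these types. In Dpep1/Guca2a epithelium Zfp36 showed 438 to 675 CPM in the 6 frozen DSS libraries, 461 CPM in Il10-/- and 278 CPM in uninjured colon (interval 239 to 320.1), a ratio of 2.11, and in Crypt-2 epithelium a ratio of 1.41. Ier3, in Crypt-2 epithelium, showed 56.9 to 177 CPM in the 6 frozen DSS libraries, 89.7 CPM in Il10-/- and 38.7 CPM in uninjured colon (interval 28.9 to 50.8), a ratio of 2.85. In B cells 3 of 26 immediate early genes lay below and 0 above (1.52% and 0.930% of all genes): Junb, Jund and Ier2.

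Genes of the same pathways outside the 38 were counted from separate lists. Of other immediate early genes, 10 pairs of gene and type were called higher and 45 lower in fresh libraries, of 215 tested; of other heat shock genes 17 higher and 6 lower of 167; of upstream regulators (the serum response factor, its partners, CREB factors and MAP kinases) 21 lower of 118; and of cold-induced genes 3 lower of 27. As shares the other immediate early genes were 4.65% higher and 20.9% lower, the other heat shock genes 10.2% and 3.59%, and the upstream regulators and cold-induced genes 17.8% and 11.1% lower, beside 6.96% higher and 7.38% lower over all genes and types. Csrnp1, a nuclear factor of early responses, was called lower in 7 types (-1.65 in neutrophils to -0.55 in Adamdec1/Bmp4 fibroblasts), and Per1, a clock gene with cAMP response elements, in 7 (-1.29 in Car4/Ly6g epithelium). Srf, the serum response factor that binds the CArG boxes of immediate early genes, was called lower in all 8 types in which it was tested, from -1.96 in Adamdec1/Bmp4 fibroblasts to -1.04 in B cells. Crem, a cAMP-responsive modulator, was lower in 4 types. Hspa4, an Hsp110 relative of Hsph1, was called higher in 8 types, up to 1.02 in neutrophils, whereas Hspa9, the mitochondrial Hsp70, was lower in 3, as Hspe1 was in 4. Cirbp, a cold-induced RNA-binding protein, was lower in 2 types, and its relative Rbm3 fell with day in 2. Over days, 22 pairs of the other immediate early genes fell (10.2%, beside 1.85% over all genes), Tnfaip3, a brake on NF-kB, in 4 types, and Hmox1, a haem-degrading stress enzyme, fell in 3.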

How the data were processed

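The authors deposited a matrix of UMI counts per gene and cell with a table of cells, per the file headers. Reads were processed with Cell Ranger 3.0.0 on mm10, per the submitters' processing notes; cell filters and the annotation method are not given in the sources used here. The cell table held 68224 cells of 14 libraries; 3 libraries (12621 cells) matched no sample label and were not analysed here. Rows without a gene name (597 of 30406, 0.517% of counts) were left out. Counts were summed per library and per cell type of the authors' annotation; no doublet caller was run.

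A library entered a type with at least 20 cells, and a type was tested where each fresh library and at least 5 frozen DSS libraries had 50 cells of it. Fits used edgeR 4.0.16 (TMM, its filter on low counts, robust quasi-likelihood) in R 4.3.3 with terms for day and batch; limma 3.58.1 (log2 CPM, prior count 2) tested one type against the others, and DESeq2 1.42.0 was an alternative. Members and lists were chosen with earlier results of these data known. Values by library are given for the members called in the most types in each direction, in the type of their largest fold change; of other lists the 2 genes called in the most types are named. The fits were tested on simulated counts. Sequences are from RefSeq (GRCm38.p6); 31 members had a promoter there.

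Totals per library set the precision: fresh libraries held 79445942 to 87491138 UMIs and the others 7963048 to 24896041. Intervals are exact Poisson at 95% and cover counting error only.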

Additional observations from a re-analysis of the deposited data

Results flagged for a closer look

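A difference between fresh and frozen DSS libraries in 1 cell type that departed from the mean of the other tested types, by limma within libraries, was found for 10 pairs of a member and a type. Of 28 members tested per type, 1 passed in Car4 epithelium (4.26% of all genes) and 1 in Crypt-2 epithelium (2.85%). In macrophages 4 passed (18.7%), and in Pi16/Pcolce2 fibroblasts 4 (4.53%). Only in Pi16/Pcolce2 fibroblasts was this well above the share of all genes. Each pair was lost in at least 1 setting that left out a library. Fosl2 departed upward in Car4 epithelium, by 1.08 on the log2 scale (adjusted p = 0.0321). Hspa1b departed downward in Crypt-2 epithelium (-0.92, adjusted p = 0.0273) and upward in Pi16/Pcolce2 fibroblasts (0.73, adjusted p = 0.0184). In Pi16/Pcolce2 fibroblasts Ier5 (-0.56, adjusted p = 0.0476), Btg2 (-0.53, adjusted p = 0.0385) and Hsp90ab1 (-0.49, adjusted p = 0.0485) departed downward. In macrophages Fosb (-0.52, adjusted p = 0.0498), Gadd45g (-0.50, adjusted p = 0.0483), Klf6 (-0.41, adjusted p = 0.0422) and Fosl2 (-0.34, adjusted p = 0.0498) departed downward, in a type where 18.1% of all genes did so.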

How the results depend on the processing

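Fresh and frozen libraries could not be paired because they came from different pools of mice killed on different days. Only the test of 1 type against the others was paired, by library. No call of a member changed sign in any setting tried. The ratio of heat shock sums in frozen DSS to uninjured Crypt-2 epithelium lay above 1, and was 0.933 with mitochondrial genes left out; that of immediate early sums in Car4/Ly6g epithelium lay just above 1, and was 0.955. With totals only, macrophages had 11 members called higher and 5 lower, against 5 and 10. Of the settings other than leaving out libraries, 70 values of the fresh-frozen counts stayed within 1.5 times and 11 moved; of the day counts 52 stayed and 29 moved. The causes were not tested.

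Fresh-frozen calls were 6 in Crypt-2 epithelium and 8 in Adamdec1/Bmp4 fibroblasts with DESeq2; 7 in Adamdec1/Bmp4 fibroblasts with no filter on low counts and 8 with totals only, the alternative chosen after seeing the data. With no day term they were 1 in Crypt-2 epithelium, 8 in macrophages, 7 in T cells, 2 in Adamdec1/Bmp4 and 4 in Pi16/Pcolce2 fibroblasts. Thinned to equal totals they were 3 in Car4 epithelium and 3 in B cells. Leaving out 1 DSS library gave 2 to 6 calls in Car4, 3 to 5 in Car4/Ly6g and 1 to 4 in Crypt-2 epithelium, 10 to 17 in B cells, 12 to 16 in macrophages, 4 to 9 in neutrophils, 6 to 13 in T cells, 3 to 9 in Adamdec1/Bmp4 and 6 to 12 in Pi16/Pcolce2 fibroblasts. Calls of 1 type against the others were 1 in macrophages and 1 in Pi16/Pcolce2 fibroblasts with a prior count of 0.5, and leaving out 1 library gave 0 to 3 in each of these, 0 to 1 in Car4, Car4/Ly6g and Crypt-2 epithelium and 0 to 0 elsewhere.

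Day calls in the 6 frozen libraries alone were 0 in Car4 and 1 in Crypt-2 epithelium, 1 in B cells, 1 in T cells and 11 in Pi16/Pcolce2 fibroblasts. DESeq2 gave 2 in Car4/Ly6g and 2 in Crypt-2 epithelium, 1 in B cells, 14 in macrophages, 1 in neutrophils, 2 in T cells and 11 in Pi16/Pcolce2 fibroblasts. No filter on low counts gave 4 in Car4/Ly6g and 1 in Crypt-2 epithelium, 4 in neutrophils and 3 in T cells. Thinning gave 1 in Car4 and 1 in Crypt-2 epithelium, 0 in B cells and 1 in neutrophils. Totals only gave 1 each in Car4, Car4/Ly6g and Crypt-2 epithelium and 8 in neutrophils. Without days 6 and 23 there were 0 in B cells, 2 in macrophages, 1 in T cells, 4 in Adamdec1/Bmp4 and 0 in Pi16/Pcolce2 fibroblasts. Leaving out 1 library gave 0 to 3 in Car4, 0 to 1 in Car4/Ly6g and 0 to 2 in Crypt-2 epithelium, 0 to 3 in B cells, 4 to 11 in macrophages, 0 to 1 in neutrophils, 0 to 1 in T cells, 8 to 16 in Adamdec1/Bmp4 and 1 to 14 in Pi16/Pcolce2 fibroblasts.

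With mitochondrial genes left out, the mean immediate early sums in frozen DSS libraries were 13805 CPM in Car4, 12950 CPM in Car4/Ly6g and 10984 CPM in Crypt-2 epithelium, 6595 CPM in B cells and 10464 CPM in macrophages, and the heat shock sums 1523, 1660 and 3883 CPM in those epithelia, 3537 CPM in B cells and 5459 CPM in Adamdec1/Bmp4 fibroblasts. The ratios of frozen DSS to uninjured immediate early sums were then 1.04 in Car4, 0.955 in Car4/Ly6g and 0.827 in Crypt-2 epithelium. With mitochondrial genes included they were 1.187, 1.003 and 0.933. The ratios of heat shock sums were 0.933 in Crypt-2 and 1.09 in Dpep1/Guca2a epithelium without mitochondrial genes, and 1.102 and 1.254 with them.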
